A study of Homo sapiens with 12 samples.

Results

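The mitochondrial ribosomal protein genes were taken from a table of FPKM values (fragments per kilobase of gene length, scaled to library size) as the protein-coding genes whose symbols start with MRPL or MRPS and a number. They came to 78 of the 62753 genes in the table, 49 named for the large subunit and 29 for the small one. The rule used names only and no measured value, but it was set with earlier results of these data known. The samples were 12 RNA-seq libraries of H9 cells (an established line of human embryonic stem cells) kept naive on mouse embryonic fibroblast feeders in PXGL medium, which blocks MEK, tankyrase and protein kinase C and supplies LIF. There were 4 groups of 3 libraries. The first received an siRNA against OGA, the hydrolase that takes O-GlcNAc sugars off proteins (siOGA, genotype given as OGA knockdown). In the second, titled siP300+OGA, the genotype is given as OGA overexpression, and the series' design text pairs the EP300 siRNA with OGA. In the third an siRNA targeted EP300, a histone acetyltransferase (siP300, genotype given as EP300 knockdown), and the fourth had a control siRNA (siNC, genotype given as WT). All cells are of 1 line, the sources used here give neither the construct nor the times of treatment, and nothing in the labels ties the 3 libraries of a group to separate cultures. The p-values therefore measure the spread between these samples, which may be technical.

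Mitochondria translate the few proteins encoded in their own genome, all of them subunits of the respiratory chain complexes or of ATP synthase, on a dedicated ribosome. Its rRNAs are transcribed in the organelle, while every one of its proteins is encoded in the nucleus, made in the cytosol and imported. Part of these proteins descend from those of the bacterial ribosome and keep their place in it, and the rest were added in the mitochondrial lineage, many of them where bacterial rRNA was lost. Naive pluripotent cells are known to use oxidative phosphorylation more than primed cells do, which rely more on glycolysis.

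The libraries held 16238225 to 18714572 reads (or fragments) in genes, recovered from the step between low values. The genes described here took 0.361% to 0.378% of them in siOGA, 0.39% to 0.391% in siP300+OGA, 0.34% to 0.349% in siP300 and 0.393% to 0.402% in siNC. The library size implied by the FPKM step was below these reads in every siOGA library and above them in every other library. It was 15455897 against 16238225 reads in siOGA replicate 1, and 19294930 against 18202764 in siP300 replicate 1. The part of this scaling in the FPKM differences between groups was not tested. OGA stood at 8.1 ± 0.771 FPKM in siOGA, 43.8 ± 0.741 in siP300+OGA, 39.8 ± 1.97 in siP300 and 40.5 ± 0.431 in siNC (SD, n = 3 each). It fell in siOGA, but against siP300 it did not pass in the siP300+OGA-labelled libraries (log2 difference 0.13, adjusted p = 0.0636), so no called change of the counted OGA transcript went with the overexpression of the label. The construct is not given, and RNA from one whose sequence differs from the gene may not be counted in these values. It did pass with a pseudocount of 5, with the 2 groups alone, with voom, with the median difference of its chromosomal region removed, and without siOGA replicate 1 or 3 or siP300 replicate 2 (0.12 to 0.34, adjusted p = 0.000692 to 0.0355). EP300 fell to 13.3 ± 0.108 FPKM in siP300, against 23.2 ± 0.355 in siNC (log2 difference −0.76, adjusted p = 2e-09). The 8 naive markers summed to 791 to 847 FPKM in siOGA, 649.8 to 672 in siP300+OGA, 486 to 488 in siP300, and 1252 to 1297 in siNC. In siOGA against siNC the log2 difference was negative for 6 of 7 tested naive markers and positive for 1. KLF17 was at 2.95 ± 0.34 FPKM in siOGA and 19 ± 0.345 in siNC, and DPPA3 at 313 ± 10.5 and 291 ± 18.9. The 8 primed markers summed to 233 to 245, 191 to 201, 205 to 207, and 83.1 to 90.2 FPKM in the 4 groups in that order, with DUSP6 at 0 in siNC. In siP300+OGA against siP300, 2 of 7 tested primed markers were higher and 4 lower (limma, adjusted p under 0.05). Of all tested genes 27% were higher and 21.2% lower there. VIM was at 0.945 ± 0.0912 FPKM in siP300+OGA and 15 ± 0.801 in siP300, and THY1 at 6.51 ± 0.304 and 3.51 ± 0.227. The 7 fibroblast markers summed to 10.2 to 11.4 FPKM in siOGA, 9.88 to 10.1 in siP300+OGA, 30.4 to 31.8 in siP300, and 4.76 to 5.36 in siNC. DCN was at 0 in siOGA, siP300+OGA and siP300, and LUM at 0 in siP300+OGA and siNC. Only 2 of the 7, COL1A1 and COL1A2, averaged 1 FPKM or more over the libraries, and they made up most of the siP300 sum. COL1A1 stood at 17.5 ± 0.546 FPKM in siP300 and 1.86 ± 0.116 in siNC, and COL1A2 at 12.7 ± 0.218 and 3.05 ± 0.265. The 6 trophectoderm markers summed to 5.53 to 5.7 FPKM in siP300 and to no more than 2.06 in any other library, and the 5 hypoblast and endoderm markers to no more than 3.01 in any library. The part of these shifts in the results below was not tested, and in bulk RNA fewer cells of a type and less RNA per cell cannot be told apart.

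In siNC 50 of the 78 genes had a mean of 10 FPKM or more. The median gene stood at 17 FPKM for the large subunit and 14.3 for the small one. The highest was MRPS26, a small-subunit protein without a bacterial relative, with 81.3, 80.8 and 64.1 FPKM in siOGA, 75.5, 72 and 68 in siP300+OGA, 55.7, 53.5 and 54.7 in siP300, and 78.1, 76.1 and 76.4 in siNC. MRPL18, the relative of the bacterial protein that binds 5S rRNA, followed with 56.4, 53.3 and 51.4 FPKM in siOGA, 71.5, 73 and 74.2 in siP300+OGA, 65.9, 58.3 and 61.8 in siP300, and 76.5, 73.6 and 78.4 in siNC. MRPL41, specific to the mitochondrial large subunit, had 66.9, 75 and 49.4 FPKM in siOGA, 72.3, 66.8 and 64.7 in siP300+OGA, 66.1, 54.1 and 58.6 in siP300, and 70.7, 81.1 and 68 in siNC. The siNC libraries of these 3 genes ranged over one another, so their order is not set by the data. MRPL37, another protein added in mitochondria, came next with 74.7, 74.7 and 70.2 FPKM in siOGA, 64.7, 60.8 and 63 in siP300+OGA, 48.2, 49.5 and 44.3 in siP300, and 66.5, 66.6 and 68.2 in siNC. Its siNC level was 67.1 ± 0.982 FPKM, below every siNC library of MRPS26 and MRPL18, and its siP300 libraries were lower than all others.

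At the low end, MRPL53 was listed at 0 in all 12 libraries, and its span lies across CCDC142 on the same strand. MRPS24, which shares its strand with the read-through gene URGCP-MRPS24, had 0.0745, 0.0939 and 0.11 FPKM in siOGA, 0.135, 0.159 and 0.173 in siP300+OGA, 0.378, 0.15 and 0.126 in siP300, and 0.0836, 0.129 and 0.134 in siNC. Both fell below the mean of 1 FPKM needed for testing, which left 76 genes, 48 large and 28 small. The lowest genes that were tested were MRPL46 and MRPL38, both proteins of the central protuberance of the large subunit. MRPL46 had 2.41, 1.74 and 2.18 FPKM in siOGA, 0.936, 1.3 and 1.23 in siP300+OGA, 1.19, 1.19 and 1.38 in siP300, and 1.4, 1.27 and 1.26 in siNC, with siOGA above the other groups. For MRPL38 the values were 1.97, 2.01 and 1.57 FPKM in siOGA, 1.42, 1.44 and 1.81 in siP300+OGA, 1.66, 1.36 and 1.29 in siP300, and 1.81, 1.26 and 1.45 in siNC, and the 4 groups overlapped. Of the 20 lowest genes in siNC, 14 overlapped another gene on their own strand, against 2 of the 20 highest. Over all 78 genes, 24 overlapped a gene on the same strand and 40 one on the opposite strand. The sources used here do not give the counting rule for shared reads, so the levels of overlapping genes are uncertain. FPKM also divides by the listed gene length, so the order of levels is not the order of reads. MRPL41, listed at 582 bases, had 73.3 FPKM in siNC and 503 to 841 reads a library over all groups. MRPS27, listed at 19524 bases, had 6.21 FPKM and 1867 to 2571 reads.

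The summed level of the genes was lowest in siP300. For the large subunit the sums were 1053, 1049.7 and 982 FPKM in siOGA, 1113, 1104 and 1089 in siP300+OGA, 936, 902 and 907 in siP300, and 1084, 1064 and 1069 in siNC. Every siP300 library lay below all 9 others. The small subunit gave 590.0, 585 and 559.7 FPKM in siOGA, 569, 568 and 562 in siP300+OGA, 486, 476 and 482 in siP300, and 576, 561 and 582 in siNC. Here too the siP300 libraries stood apart, and the other 3 groups overlapped or lay close together. The ratio of the large to the small sum was 1.778 ± 0.0205 in siOGA, 1.947 ± 0.00837 in siP300+OGA, 1.901 ± 0.0207 in siP300, and 1.872 ± 0.0308 in siNC (SD, n = 3), lowest in siOGA and highest in siP300+OGA. An exact permutation test of 3 libraries against 3 cannot give a two-sided p under 0.1, so these sums are a description.

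**Figure D1:**
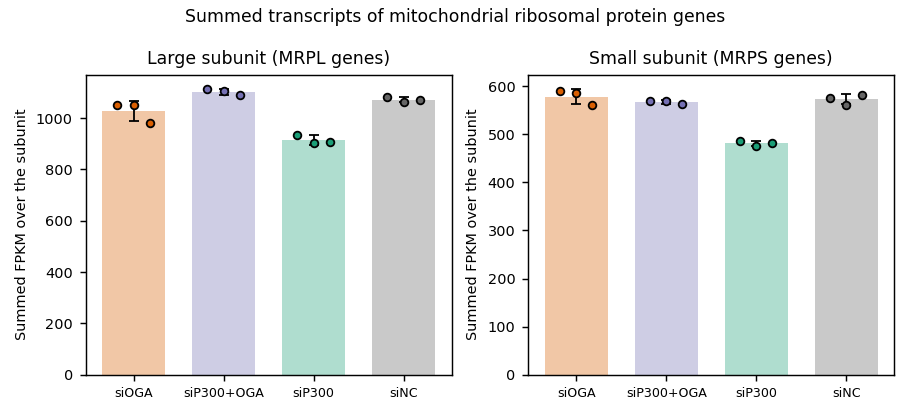
Summed FPKM (vertical axis) of the genes named for the large subunit (left) and the small subunit (right) in the 4 groups; points are libraries, bars are means and error bars the SD of 3 libraries. The siP300 bars, at 915 and 481 FPKM, are the lowest of both panels.

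Among the 76 tested genes, the group with the lowest mean was siP300 for 38, siOGA for 25, siP300+OGA for 6 and siNC for 7. The highest mean was in siOGA for 29, siP300+OGA for 27, siP300 for 1 and siNC for 19. The median range between the 4 group means was 0.376 on the log2(FPKM + 1) scale, with a median SD of 0.071 between libraries of a group. MRPS35 had the widest range at 1.19 and MRPL24 the narrowest at 0.154.

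**Figure D2:**
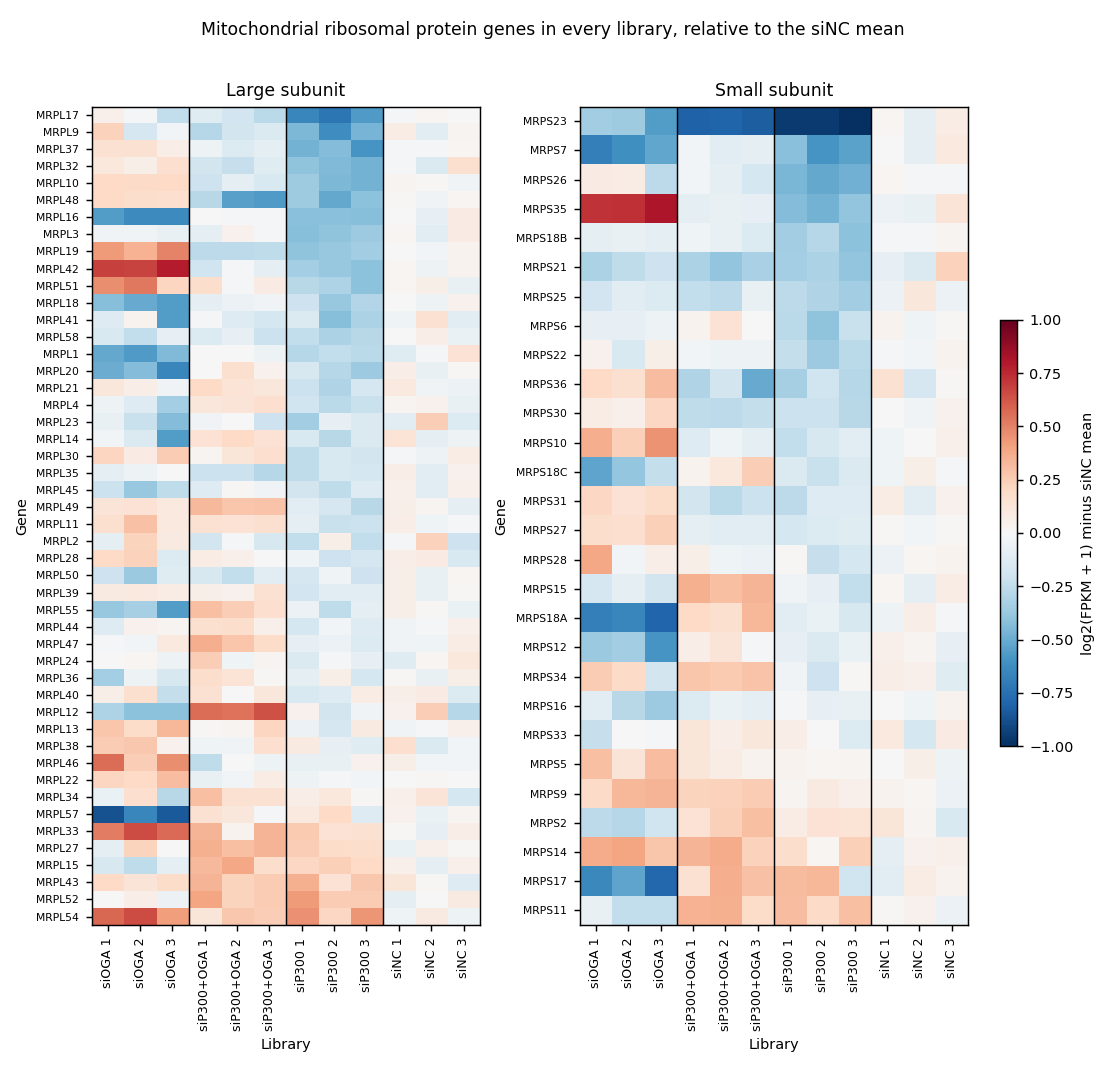
Difference of log2(FPKM + 1) from the siNC mean (colour, −1 to 1) for the 48 tested genes of the large subunit and 28 of the small subunit (rows, ordered by the difference of siP300 from siNC) in all 12 libraries (columns). Most rows are blue in the 3 siP300 columns, while the siOGA columns hold strong colours of both signs.

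The comparison of siP300 with siNC asked what the EP300 siRNA changed. Of the 76 tested genes, 37 fell and 6 rose, against a background of 35.7% lower and 30.2% higher (65.9% in either direction) among all 13166 tested genes (mean 1 FPKM or more), compared with limma on log2(FPKM + 1). In the large subunit 23 of 48 fell and 5 rose, and in the small subunit 14 of 28 fell and 1 rose. The median log2 difference of the 76 was −0.17, beside −0.04 over all tested genes. The background depended on level. Of the 7018 genes averaging 5 FPKM or more, 3149 were lower and 2023 higher, with a median of −0.10. With that filter 35 of the genes described here were lower and 5 higher. By origin, 15 of 30 large-subunit proteins shared with bacteria fell and 2 rose, and 9 of 20 mitochondria-specific ones fell and 3 rose. In the small subunit 4 of 15 shared proteins fell and 1 rose, and 9 of 11 mitochondria-specific ones fell and 0 rose (limma, adjusted p under 0.05; also 0 at an unadjusted p under 0.05 and with voom). MRPS18A and MRPS30, named for the small subunit, are counted here with the large one, where structures place them. With the median of each 20 Mb region of the genome removed, 28 genes were lower, 25 of them among the 37, and the median was −0.10. Of all 13166 tested genes 4212 were lower and 4204 higher in that setting, with a median of −0.01. There 9 small-subunit genes were lower in place of 14, and 4 mitochondria-specific ones of the small subunit in place of 9. With quantile normalization 30 of the 76 were lower and 8 higher, beside 4624 lower and 4086 higher of all tested genes.

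MRPS23, a mitochondria-specific protein of the small subunit (ENSG00000181610, GRCh38 chromosome 17, 57834781 to 57850056, minus strand), had 14.7, 14.6 and 12.6 FPKM in siOGA, 10.4, 10.5 and 10.3 in siP300+OGA, 9.29, 9.3 and 8.76 in siP300, and 19.3, 17.7 and 20.1 in siNC. The siP300 libraries were the lowest, siP300+OGA lay just above them, and siNC was highest with no overlap between any groups. It fell in siP300 to 47.9% of siNC (log2 difference −0.99, SE 0.0594, adjusted p = 8.06e-08), the lowest value of all 76. It rested on 1021 to 2264 reads a library. In siOGA it fell to 73.5% of siNC (log2 difference −0.42, SE 0.0594, adjusted p = 8.16e-05).

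In the small subunit 2 further genes were among the 6 with the largest fall. MRPS7, the relative of the bacterial protein S7 that organises the head of the subunit (chromosome 17, 75261674 to 75266376, plus strand), had 15, 15.8 and 16.9 FPKM in siOGA, 24.2, 22.9 and 23.1 in siP300+OGA, 18.3, 16.1 and 16.8 in siP300, and 24.6, 23.1 and 26.6 in siNC. Its siOGA and siP300 libraries lay below all those of the other groups, and it fell in siP300 to 68.9% of siNC (log2 difference −0.51, SE 0.0612, adjusted p = 2.05e-05). MRPS26, the gene with the highest level (chromosome 20, 3046052 to 3048250, plus strand), fell to 71% (log2 difference −0.49, SE 0.0764, adjusted p = 0.000176). Its 3 siP300 libraries lay below the other 9, and its siOGA libraries spread from 64.1 to 81.3 FPKM.

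The other 3 of the 6 belong to the large subunit. MRPL17, a relative of a bacterial protein near the exit of the peptide tunnel (chromosome 11, 6680385 to 6683340, minus strand), had 23.9, 22.7 and 19.3 FPKM in siOGA, 21.1, 20 and 18.9 in siP300+OGA, 14.3, 13.6 and 15.2 in siP300, and 22.7, 23.3 and 23.1 in siNC. Only the siP300 libraries stood apart downward, at 62.4% of siNC (log2 difference −0.65, SE 0.07, adjusted p = 9.41e-06). MRPL9, relative of the bacterial L9 at the base of the L1 stalk, had 34.4, 25.9 and 28.6 FPKM in siOGA, 23.7, 25.5 and 26.3 in siP300+OGA, 21.1, 18.6 and 20.9 in siP300, and 30.7, 27.1 and 29.8 in siNC. It fell to 69.3% (log2 difference −0.51, SE 0.0912, adjusted p = 0.000473), and its siOGA libraries overlapped siNC. MRPL37 (values above, chromosome 1, 54184041 to 54225464, plus strand) fell to 70.5% (log2 difference −0.50, SE 0.043, adjusted p = 1.47e-06), the group lying below all other libraries. The tested genes of its 20 Mb region had a median of −0.24 there, and with it removed MRPL37 was at −0.24 (adjusted p = 0.00237). MRPS26 was at −0.32 in that setting (adjusted p = 0.00198).

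The 6 genes that rose in siP300 were MRPL54, MRPL52, MRPS11, MRPL43, MRPL15 and MRPL27. MRPL54, specific to the mitochondrial large subunit (chromosome 19, 3762682 to 3768575, plus strand), had 12.5, 13.2 and 11.1 FPKM in siOGA, 8.83, 9.94 and 9.75 in siP300+OGA, 11.4, 9.43 and 11.3 in siP300, and 7.8, 8.66 and 7.74 in siNC. All siNC libraries were below the rest, and the rise in siP300 was to 133% (log2 difference 0.36, SE 0.0805, adjusted p = 0.002). MRPL52, also specific to mitochondria, had 6.54, 6.93 and 6.28 FPKM in siOGA, 8.96, 7.83 and 8.03 in siP300+OGA, 9.19, 8.04 and 8.04 in siP300, and 6.1, 6.57 and 7.08 in siNC, with siP300 and siP300+OGA apart from the other groups (log2 difference 0.31, SE 0.0681, adjusted p = 0.00178). MRPL43, another such protein, had 8.99, 8.48 and 8.88 FPKM in siOGA, 10, 9.15 and 9.37 in siP300+OGA, 10.1, 8.6 and 9.45 in siP300, and 8.44, 7.76 and 6.93 in siNC, and its siP300 libraries lay just above those of siNC (log2 difference 0.26, SE 0.069, adjusted p = 0.00675). MRPS11, the relative of bacterial S11 on the platform of the small subunit, had 3.23, 2.76 and 2.77 FPKM in siOGA, 4.67, 4.7 and 4.07 in siP300+OGA, 4.52, 4.1 and 4.49 in siP300, and 3.5, 3.61 and 3.29 in siNC (log2 difference 0.27, SE 0.0657, adjusted p = 0.0041). For MRPL52, MRPS11 and MRPL43 the call ended with regional medians removed (the median difference of the tested genes in a gene's 20 Mb region subtracted), at 0.11 (adjusted p = 0.165), 0.01 (0.954) and 0.10 (0.188).

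MRPL15 and MRPL27 are relatives of bacterial proteins, and bacterial L27 reaches the peptidyl transferase centre. MRPL15 had 33.4, 31.2 and 35.2 FPKM in siOGA, 47.1, 49.3 and 42.4 in siP300+OGA, 43.3, 44.3 and 43.1 in siP300, and 38.8, 34.9 and 38.8 in siNC, and siP300 lay above siNC (log2 difference 0.21, SE 0.0614, adjusted p = 0.0102; 0.35 with quantile normalization). MRPL27 had 6.43, 8.26 and 6.96 FPKM in siOGA, 9.14, 8.76 and 9.01 in siP300+OGA, 8.39, 8.02 and 7.95 in siP300, and 6.55, 7.23 and 7.01 in siNC (log2 difference 0.20, SE 0.0695, adjusted p = 0.0237). The MRPL27 call was lost with no filter on low values (0.20, adjusted p = 0.0564) and without siNC replicate 1 (0.17, adjusted p = 0.0864) or siP300 replicate 1 (0.18, adjusted p = 0.074). In siP300+OGA against siP300 the 6 genes ranged from −0.15 for MRPL54 to 0.13 for MRPL27, without passing. With regional medians removed MRPL15 (0.24, adjusted p = 0.00784), MRPL43 (0.23, 0.0171) and MRPS11 (0.24, 0.0199) passed as higher there. MRPL54 passed as lower without siP300 replicate 2 (−0.23, adjusted p = 0.0316), and MRPL27 as higher with the 2 groups alone (0.13, 0.023) or without siOGA replicate 2 (0.13, 0.0379).

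**Figure D3:**
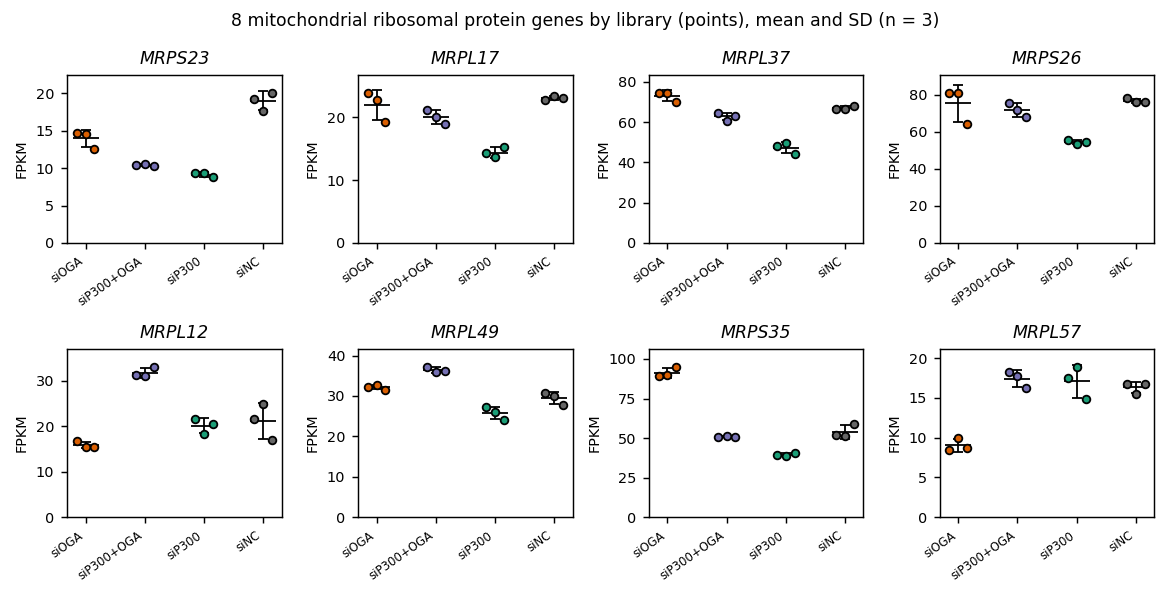
FPKM (vertical axes, from 0) of 8 genes in the 4 groups, with points for libraries, a dash for the mean and bars for the SD (n = 3). MRPS23, MRPL17, MRPL37 and MRPS26 (top) are lowest in siP300; below, MRPL12 and MRPL49 are highest in siP300+OGA, MRPS35 is highest in siOGA at 91.4 FPKM, and MRPL57 is lowest there at 9.05 FPKM. The 8 were picked after their values were seen.

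In the siP300+OGA-labelled libraries 37 of the 76 genes were higher than in siP300 and 0 were lower (limma, adjusted p under 0.05), against 27% higher and 21.2% lower among all tested genes (48.2% in either direction). At an unadjusted p under 0.05 the number lower was also 0, and voom on the recovered reads called 38 higher and 0 lower. With quantile normalization 1 was lower, and 1 without siP300 replicate 2. The large subunit held 25 of the 37 (of 48 tested) and the small one 12 (of 28). The median log2 difference was 0.17, beside 0.03 over all tested genes. Of the 7018 genes averaging 5 FPKM or more, 2753 were higher and 1386 lower, with a median of 0.08. With that filter 36 of the genes described here were higher and 0 lower. By origin, 18 of 30 shared and 8 of 20 mitochondria-specific proteins of the large subunit rose, as did 5 of 15 and 6 of 11 of the small subunit. EP300 itself was higher in these libraries than in siP300 (15.4 ± 0.329 against 13.3 ± 0.108 FPKM, log2 difference 0.20, adjusted p = 0.000182), a call that ended with regional medians removed (0.09, adjusted p = 0.14). The part of this in the result was not tested. The comparison shares its siP300 libraries with the one above, so a gene low in those libraries enters both.

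MRPL12, the protein of the flexible stalk that contacts translation factors (chromosome 17, 81703367 to 81707517, plus strand), had 16.7, 15.5 and 15.5 FPKM in siOGA, 31.3, 30.9 and 33 in siP300+OGA, 21.6, 18.3 and 20.4 in siP300, and 21.5, 24.9 and 17 in siNC. All siP300+OGA libraries lay above every other library, and the level was 158% of siP300 (log2 difference 0.64, SE 0.107, adjusted p = 0.000588). In siP300 against siNC it was at −0.06 (adjusted p = 0.663), and at −0.20 (adjusted p = 0.0429) without siNC replicate 3, its lowest siNC library. The siP300+OGA libraries also lay above siNC (0.58, adjusted p = 0.000711). MRPL49, specific to the mitochondrial large subunit, had 32.3, 32.7 and 31.6 FPKM in siOGA, 37.2, 35.9 and 36.1 in siP300+OGA, 27.2, 26.1 and 24.1 in siP300, and 30.7, 30.1 and 27.7 in siNC, again highest in siP300+OGA (141% of siP300, log2 difference 0.48, SE 0.0473, adjusted p = 1.19e-05). For MRPL16, relative of a bacterial protein beside the tRNA-binding sites, the values were 22.2, 20.9 and 21 FPKM in siOGA, 33.2, 32.9 and 32.9 in siP300+OGA, 24.6, 24.6 and 24.4 in siP300, and 33.2, 31.2 and 35.1 in siNC. Its siP300+OGA libraries fell within the range of siNC, and the rise over siP300 was to 135% (log2 difference 0.41, SE 0.0401, adjusted p = 1.07e-05).

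MRPL17 rose to 139% of siP300 (log2 difference 0.45, SE 0.07, adjusted p = 0.000329) and lay below siNC (−0.20, adjusted p = 0.0315), a call lost without any 1 siNC library, without siP300+OGA replicate 2 or 3, and with no filter on low values (−0.21 to −0.16, adjusted p = 0.0556 to 0.11). In the small subunit MRPS15, relative of a bacterial protein that binds rRNA early in assembly, had 19, 20.1 and 18.8 FPKM in siOGA, 27.8, 26.7 and 27.4 in siP300+OGA, 20.9, 20.2 and 17.9 in siP300, and 21.8, 20 and 22.7 in siNC. Its siP300+OGA libraries stood above all others, at 138% of siP300 (log2 difference 0.45, SE 0.0586, adjusted p = 9.17e-05). MRPS7 rose to 137% (log2 difference 0.44, SE 0.0612, adjusted p = 0.000156), with siP300+OGA overlapping siNC. MRPS23 differed: at 54.7% of siNC it stayed low in siP300+OGA (log2 difference −0.81, SE 0.0594, adjusted p = 5.92e-07), and its rise over siP300 was small (0.18, adjusted p = 0.0308). That rise was lost without any 1 of the 6 libraries of siP300+OGA and siP300 (0.15 to 0.19, adjusted p = 0.0512 to 0.102) and with regional medians removed (0.06, adjusted p = 0.442).

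Against siNC, the siP300+OGA libraries had 19 of 76 genes higher and 14 lower, with a background of 30.8% higher and 30.2% lower (60.9% in either direction), and a median log2 difference of 0.05. Of these, 12 of 48 large-subunit genes were higher and 7 lower, and 7 of 28 small-subunit genes were higher and 7 lower. The 7 lower large-subunit genes were 4 without siNC replicate 1 or with no filter on low values. The differences ran from −0.81 (MRPS23) to 0.58 (MRPL12).

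**Figure D4:**
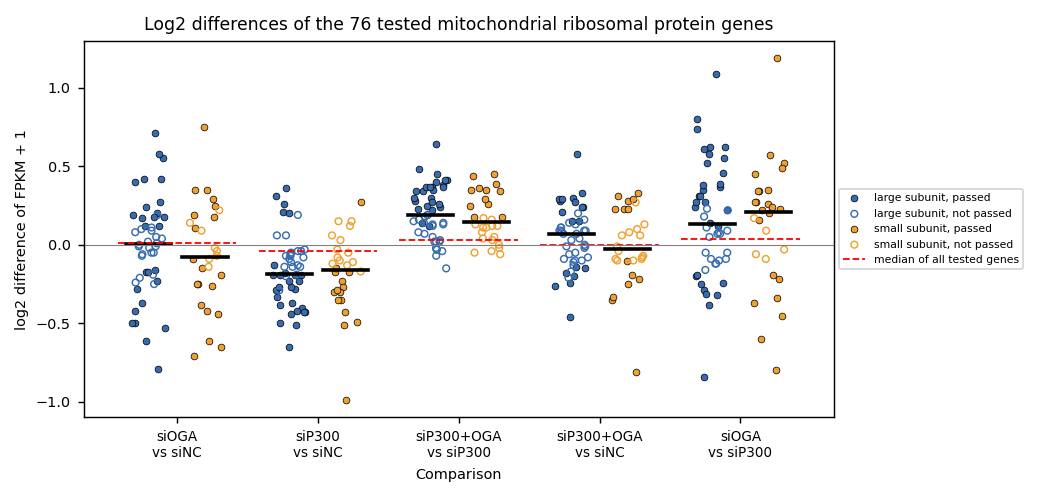
Log2 difference of FPKM + 1 (vertical axis) for the 76 tested genes in 5 comparisons, large subunit left and small subunit right in each; filled points passed (limma, adjusted p under 0.05), open ones did not, black lines are subunit medians and dashed red lines the median of all 13166 tested genes. In siP300 against siNC both subunit medians (−0.18 and −0.16) lie below the red line, and in siP300+OGA against siP300 (0.19 and 0.14) above it.

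In siOGA against siNC the genes moved in both directions. Of the 76, 23 rose and 24 fell, with a background of 34% higher and 32.9% lower (66.9% in either direction), so the shares were near those of all genes. The median was −0.01. The large subunit had 15 higher and 12 lower of 48, and the small subunit 8 higher and 12 lower of 28. Among proteins shared with bacteria, 7 of 30 in the large subunit rose and 8 fell, and 4 of 15 in the small subunit rose and 9 fell. Among mitochondria-specific ones, 9 of 20 rose and 5 fell in the large subunit, and 3 of 11 rose and 2 fell in the small one. With quantile normalization 18 were higher and 27 lower, beside 4266 and 4411 of all 13166 tested genes. With regional medians removed 13 were higher and 22 lower, and 3 of the small subunit were higher in place of 8. Of all tested genes 4278 were higher and 4264 lower in that setting. The 9 higher mitochondria-specific genes of the large subunit were 4 with quantile normalization, with no filter, or without siNC replicate 2, and 5 without siOGA replicate 1 or 2. The 7 higher shared genes of the large subunit were 4 with regional medians removed.

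MRPL57, a mitochondria-specific protein of the large subunit (chromosome 13, 21176658 to 21179084, plus strand), had 8.46, 10 and 8.67 FPKM in siOGA, 18.3, 17.7 and 16.2 in siP300+OGA, 17.5, 18.9 and 14.8 in siP300, and 16.8, 15.5 and 16.7 in siNC. The siOGA libraries were the lowest and the other 9 overlapped, at 55.5% of siNC (log2 difference −0.79, SE 0.085, adjusted p = 9.99e-06). MRPS18A, a large-subunit protein despite its name (chromosome 6, 43671202 to 43687791, minus strand), had 10.6, 10.9 and 9.78 FPKM in siOGA, 20.4, 19.8 and 22.5 in siP300+OGA, 16.3, 16.8 and 15.7 in siP300, and 17, 18.5 and 17.5 in siNC, lowest in siOGA (59% of siNC, log2 difference −0.71, SE 0.0551, adjusted p = 7.13e-07). It was not called in siP300 against siNC (−0.11, adjusted p = 0.0934). MRPS17, relative of bacterial S17, had 1.26, 1.46 and 1.06 FPKM in siOGA, 2.94, 3.56 and 3.33 in siP300+OGA, 3.41, 3.46 and 2.08 in siP300, and 2.28, 2.73 and 2.63 in siNC. The siOGA values were again the lowest (49.5% of siNC, log2 difference −0.65, SE 0.133, adjusted p = 0.00115), on 39 to 138 reads a library and with NIPSNAP2 on the same strand. It was at −0.27 with a pseudocount of 5 and at −1.02 with voom.

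MRPL20, relative of a bacterial protein needed for assembly of the large subunit, had 16, 16.7 and 14.2 FPKM in siOGA, 22.9, 25.8 and 23.7 in siP300+OGA, 20.4, 18.6 and 17.6 in siP300, and 24.1, 21.7 and 23.1 in siNC. It fell in siOGA to 68.2% of siNC (log2 difference −0.53, SE 0.0704, adjusted p = 5.3e-05) and in siP300 to 82% (−0.27, adjusted p = 0.00508), the second a call lost with regional medians removed (−0.14, adjusted p = 0.0914). In siOGA MRPL20 was at −0.33 with them removed (adjusted p = 0.00103). MRPL16 fell in siOGA to 64.5% (log2 difference −0.61, SE 0.0401, adjusted p = 1.98e-07) and in siP300 to 74% (−0.42, adjusted p = 3.4e-06). MRPS7 fell to 64.3% in siOGA (log2 difference −0.61, SE 0.0612, adjusted p = 5.74e-06). Both were lower in both knockdowns than in any siNC library.

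Of the genes that rose in siOGA, MRPS35, a small-subunit protein specific to mitochondria (chromosome 12, 27710822 to 27756295, plus strand), had 89.3, 89.8 and 95 FPKM in siOGA, 50.6, 51.2 and 50.9 in siP300+OGA, 39.5, 38.4 and 40.8 in siP300, and 51.7, 51.1 and 59 in siNC. The siOGA libraries stood far above the rest and those of siP300 below all others. It rose in siOGA to 169% of siNC (log2 difference 0.75, SE 0.05, adjusted p = 2.14e-07) and fell in siP300 to 73.4% (log2 difference −0.43, SE 0.05, adjusted p = 1.5e-05). The tested genes of its 20 Mb region on chromosome 12 moved too. With their median removed the siOGA difference was 0.40 and that in siP300 was 0.01 (adjusted p = 0.903), and siP300+OGA against siNC turned from −0.08 to 0.34 (adjusted p = 0.000123). MRPL51, on the same chromosome, had 59.6, 62.2 and 49.8 FPKM in siOGA, 48.5, 42.1 and 45.3 in siP300+OGA, 35.2, 34.3 and 32 in siP300, and 43.3, 44.7 and 40.5 in siNC. It rose in siOGA (log2 difference 0.40, SE 0.0793, adjusted p = 0.000889) and fell in siP300 (log2 difference −0.33, SE 0.0793, adjusted p = 0.00327), and with regional medians removed neither passed (0.08, adjusted p = 0.367, and 0.02, adjusted p = 0.782).

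MRPL42, specific to mitochondria and also on chromosome 12 (chromosome 12, 93467514 to 93516214, plus strand), had 8.19, 8.16 and 8.88 FPKM in siOGA, 3.99, 4.67 and 4.38 in siP300+OGA, 3.53, 3.41 and 3.32 in siP300, and 4.8, 4.53 and 4.87 in siNC. It rose in siOGA to 178% (log2 difference 0.71, SE 0.054, adjusted p = 5.81e-07) and fell in siP300 to 72.3% (log2 difference −0.37, SE 0.054, adjusted p = 8.97e-05). MRPL33, relative of a bacterial protein near the tRNA exit site, had 5.95, 6.63 and 6.19 FPKM in siOGA, 5.14, 3.99 and 5.16 in siP300+OGA, 4.84, 4.38 and 4.39 in siP300, and 3.91, 3.59 and 4.1 in siNC, highest in siOGA (162% of siNC, log2 difference 0.58, SE 0.0815, adjusted p = 8.14e-05). Its span overlaps BABAM2 on the same strand. MRPL54 rose to 152% (log2 difference 0.55, SE 0.0805, adjusted p = 0.00011). MRPL19, relative of bacterial L19 at the interface of the subunits, had 17.2, 16.3 and 18.1 FPKM in siOGA, 10.3, 10.3 and 10.4 in siP300+OGA, 9.25, 9.45 and 9.64 in siP300, and 12.5, 12.3 and 12.9 in siNC. It rose in siOGA (log2 difference 0.42, SE 0.0383, adjusted p = 2.37e-06) and fell in siP300 (log2 difference −0.38, SE 0.0383, adjusted p = 5.57e-06), and no library of the 4 groups overlapped another group. With regional medians removed the siOGA differences were 0.28 for MRPL42 (adjusted p = 0.000191) and 0.26 for MRPL19 (3.92e-05). With a pseudocount of 5 those of MRPL42 and MRPL33 were 0.46 and 0.34.

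MRPL46 and MRPS11 start 63 bases apart on opposite strands of chromosome 15. In siOGA MRPL46 was 161% of siNC (log2 difference 0.42, SE 0.0935, adjusted p = 0.00201), and MRPS11 was 84.2% (log2 difference −0.19, SE 0.0657, adjusted p = 0.0245). With voom MRPL46 was at 0.67, and with a pseudocount of 5 at 0.17. MRPS11 was at −0.32 with regional medians removed and at −0.10 with a pseudocount of 5. The MRPS11 call was lost with no filter or the 2 groups alone (adjusted p = 0.0546 and 0.0515), and without siNC replicate 1 or 2 or siOGA replicate 2 or 3 (−0.18 to −0.16, adjusted p = 0.0612 to 0.0814).

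The difference between the knockdowns was tested directly. In siOGA against siP300, 38 of 76 genes were higher and 16 lower, beside 39.3% higher and 34.8% lower (74.1% in either direction) of all tested genes. The median log2 difference was 0.17, beside 0.04 over all tested genes and 0.12 over those averaging 5 FPKM or more. Of 11 mitochondria-specific small-subunit proteins 9 were higher and 0 lower (limma; also 0 at an unadjusted p under 0.05 and with voom), and of the 15 shared ones 6 were higher and 6 lower. With regional medians removed 5 of the 11 were higher, and of the 15 shared ones 2 were higher and 3 lower. MRPS35 (log2 difference 1.19, SE 0.05, adjusted p = 3.79e-09), MRPL42 (log2 difference 1.09, SE 0.054, adjusted p = 1.27e-08) and MRPL19 (log2 difference 0.80, SE 0.0383, adjusted p = 9.62e-09) lay above siP300 in all siOGA libraries. The 53 tested genes of the 20 Mb region of MRPS35 had a median of 0.85 in this comparison, and with it removed MRPS35 was at 0.39 (adjusted p = 2.39e-05). MRPL57 (log2 difference −0.84, SE 0.085, adjusted p = 3.88e-06) and MRPS17 (log2 difference −0.80, SE 0.133, adjusted p = 0.000212) lay below, and voom gave −1.22 for MRPS17.

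The 18 genes called in all of siOGA against siNC, siP300 against siNC, and siP300+OGA against siP300 were MRPL1, MRPL4, MRPL10, MRPL11, MRPL16, MRPL18, MRPL19, MRPL20, MRPL30, MRPL37, MRPL42, MRPL49, MRPL51, MRPL58, MRPS7, MRPS18B, MRPS23 and MRPS35. They were 23.7% of the 76, against 28% of all 13166 tested genes called in the same 3 comparisons. All 18 were lower in siP300 than in siNC and higher in siP300+OGA than in siP300, which was so for 44.4% of the 3682 genes called in all 3. Both of these comparisons use the siP300 libraries, with opposite sign, so the direction is given as a description. Opposite signs in these comparisons, in either order, were found for 2960 of the 3682 genes (80.4%). In siOGA 9 were higher (MRPL10, MRPL11, MRPL19, MRPL30, MRPL37, MRPL42, MRPL49, MRPL51 and MRPS35) and the other 9 lower. MRPL1, of the L1 stalk, had 16.4, 15.7 and 17.3 FPKM in siOGA, 23.9, 23.9 and 23 in siP300+OGA, 19.3, 19.9 and 19.6 in siP300, and 21.8, 23.4 and 26.4 in siNC. MRPL10, which anchors the MRPL12 stalk, had 41.7, 41.4 and 41.7 FPKM in siOGA, 31.3, 33.9 and 32.4 in siP300+OGA, 28, 26.2 and 25.8 in siP300, and 36.9, 36.5 and 35.2 in siNC. MRPL11, at the base of that stalk, had 27.1, 29.8 and 25.9 FPKM in siOGA, 26.9, 26.8 and 27.1 in siP300+OGA, 22.4, 20.5 and 20.6 in siP300, and 25.3, 23.3 and 23.7 in siNC. MRPL1 was lowest in siOGA (−0.50, adjusted p = 1.91e-05), while MRPL10 (0.20, adjusted p = 0.000843) and MRPL11 (0.18, adjusted p = 0.00873) were higher there than in siNC. In siP300 all 3 fell, with log2 differences of −0.27, −0.43 and −0.18 (adjusted p = 0.00206, 1.78e-06 and 0.00985).

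MRPL4 and MRPL30 are relatives of bacterial L4 and L30. MRPL4 had 15.4, 14.5 and 12.4 FPKM in siOGA, 17.3, 17.5 and 18.1 in siP300+OGA, 13.8, 13.1 and 13.5 in siP300, and 16.3, 16.5 and 15.1 in siNC. MRPL30 had 15.7, 14.3 and 16.2 FPKM in siOGA, 13.7, 14.7 and 15.2 in siP300+OGA, 11.1, 12 and 11.7 in siP300, and 13.2, 12.9 and 14.2 in siNC. Both had their lowest means in siP300, at −0.23 (adjusted p = 0.00951) and −0.19 (adjusted p = 0.0105) against siNC on the log2 scale. MRPL58, also a peptidyl-tRNA hydrolase that rescues stalled ribosomes, had 22.6, 21.1 and 23.8 FPKM in siOGA, 22.9, 23.8 and 21.6 in siP300+OGA, 21.1, 20 and 20.6 in siP300, and 25.1, 26.5 and 24.1 in siNC, with siNC above all other libraries (−0.28, adjusted p = 0.000523 in siP300). MRPS18B, counted above as mitochondria-specific although its sequence is related to that of bacterial S18, had 46.5, 47.3 and 46.8 FPKM in siOGA, 48.3, 47.3 and 45.3 in siP300+OGA, 39.1, 40.7 and 37.4 in siP300, and 49.6, 49.2 and 50.9 in siNC, and only siP300 stood well apart (−0.35, adjusted p = 5.24e-06). MRPL18 (values above) fell in siOGA (−0.50, adjusted p = 3.4e-06) and in siP300 (−0.29, adjusted p = 0.000202).

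With quantile normalization MRPL4 (−0.15, adjusted p = 0.0543), MRPL11 (−0.07, 0.218) and MRPL49 (−0.06, 0.268) no longer passed in siP300 against siNC. With regional medians removed MRPL20, MRPL51 and MRPS35 (values above) and MRPL30 (−0.14, adjusted p = 0.0521) did not pass there. MRPL1 was smaller in siP300 under both (−0.16 and −0.14, adjusted p = 0.0268 and 0.0448). MRPL18 (−0.16), MRPL58 (−0.18), MRPS18B (−0.23) and MRPL51 (−0.21) kept the call with quantile normalization at a smaller difference. In siOGA against siNC, MRPL30 (0.07, adjusted p = 0.26), MRPL49 (0.10, 0.0601), MRPL51 (0.08, 0.367) and MRPL58 (−0.09, 0.184) did not pass with regional medians removed, nor MRPL37 (−0.04, 0.476) and MRPL49 (0.05, 0.394) with quantile normalization. In siP300+OGA against siP300, MRPL19 (0.02, adjusted p = 0.626) and MRPL58 (0.05, 0.553) did not pass with regional medians removed, nor MRPL58 (0.05, 0.431) with quantile normalization.

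Several of the differences in siOGA against siNC were small and depended on single libraries. MRPL37 (mean 73.2 FPKM in siOGA, 67.1 in siNC) did not pass without siNC replicate 1 or 2 or siOGA replicate 1 or 2 (0.11 to 0.12, adjusted p = 0.0635 to 0.0777). Nor did it pass with no filter (adjusted p = 0.0577). MRPL49 (mean 32.2 FPKM in siOGA, 29.5 in siNC) was lost without any 1 of 7 libraries (0.08 to 0.14, adjusted p = 0.0501 to 0.158). These were siNC replicates 2 and 3, siOGA replicates 1 and 2, siP300 replicate 2 and siP300+OGA replicates 2 and 3. MRPL4 (mean 14.1 FPKM in siOGA, 15.9 in siNC) was lost without siNC replicate 1 or 2 or siOGA replicate 3 (−0.16 to −0.09, adjusted p = 0.0945 to 0.111). MRPL58 (mean 22.5 FPKM in siOGA, 25.2 in siNC) was lost without siNC replicate 2 or siOGA replicate 2 (−0.12 and −0.11). MRPS18B (mean 46.9 FPKM in siOGA, 49.9 in siNC) was lost without any 1 library of siOGA or siNC, without siP300 replicate 1 or without siP300+OGA replicate 2 (−0.10 to −0.07, adjusted p = 0.0549 to 0.123). For siP300+OGA against siP300, MRPL19 (means 10.3 and 9.45 FPKM) was lost without replicate 1 or 2 of siP300 or replicate 2 or 3 of siP300+OGA (0.11 to 0.12, adjusted p = 0.0559 to 0.0778). MRPL58 (means 22.8 and 20.6 FPKM) was lost without 7 single libraries, siNC replicate 1, siOGA replicate 1, all 3 of siP300, and siP300+OGA replicates 1 and 2 (0.11 to 0.16, adjusted p = 0.0566 to 0.156). MRPL9 (means 25.2 and 20.2 FPKM) was lost there without siP300 replicate 2 (0.25, adjusted p = 0.0712) or siP300+OGA replicate 3 (0.27, adjusted p = 0.0613).

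The start regions of the genes were read from RefSeq (GRCh38.p14), from 250 bases before to 50 after the start, and 68 of the 78 genes were matched. The files name the same build, GRCh38. Searching both strands for 15 letter patterns, 28 of the 68 (41.2%) held CCGGAAG, a core of sites for ETS factors such as GABPA, against 10.7% of 27305 promoters. The 27305 held each gene symbol once and were not chosen by expression or coding status, while the 68 genes are all protein-coding. AAGATGGC, a core of YY1 sites, was in 21 (30.9%), against 3.03% of all promoters. Either pattern was in 60.3% of the genes, against 13.1%, and 8 genes held both. TATAAA was in 2.94% against 12%, and a pattern of NRF1 sites in 13.2% against 8.78%. The patterns described were picked after all 15 were seen, several of them contain one another, and a match is not a measured binding site. Of the 32 matched genes lower in siP300, 37.5% held CCGGAAG and 34.4% AAGATGGC, beside 44.4% and 27.8% of the other 36. The ETS letters lay within 100 bases before the start in 21 of 28 genes, and the YY1 letters after the start in 16 of 21.

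Stretches of 30 bases around the first match are shown for genes that differed in opposite ways, since the same letters occur in both; they run 5′ to 3′ on the gene's strand, with the matched letters in capitals (CTTCCGG is CCGGAAG on the other strand). MRPS23, MRPS26 and MRPS7 fell in siP300, MRPL54, MRPL43 and MRPL27 rose in it, MRPS18A and MRPL20 fell and MRPL42 and MRPL33 rose in siOGA, and MRPL16 and MRPL49 rose in siP300+OGA over siP300.
MRPS23, ETS letters, chr17:57850040-57850069, minus strand: tggagcagccgCTTCCGGttccggtagcag
MRPS26, ETS letters, chr20:3046004-3046033, plus strand: tccccgcgccgCTTCCGGggcacggtggcg
MRPS7, YY1 letters, chr17:75261887-75261916, plus strand: cgtggccagccAAGATGGCtgcccccgcag
MRPL54, ETS letters, chr19:3762650-3762679, plus strand: gccactgacgtCTTCCGGaaacgtgcactt
MRPL43, ETS letters, chr10:100987497-100987526, minus strand: tcgtcccggaaCCGGAAGcctcgaggttta
MRPL27, ETS letters, chr17:50373218-50373247, minus strand: ccacgcagggcCCGGAAGtagatctcctga
MRPS18A, ETS letters, chr6:43687804-43687833, minus strand: ggcgctacgttCCGGAAGcggaaatggacg
MRPS18A, YY1 letters, chr6:43687764-43687793, minus strand: gtaggtttttgAAGATGGCggccctcaagg
MRPL20, ETS letters, chr1:1407319-1407348, minus strand: cgaccttcgccCCGGAAGtatcgcaggggc
MRPL20, YY1 letters, chr1:1407260-1407289, minus strand: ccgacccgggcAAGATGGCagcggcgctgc
MRPL42, YY1 letters, chr12:93467511-93467540, plus strand: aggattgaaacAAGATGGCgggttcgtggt
MRPL33, ETS letters, chr2:27771700-27771729, plus strand: cgggccgtgccCCGGAAGcagttgttgttg
MRPL16, ETS letters, chr11:59810766-59810795, minus strand: agtgaacacaaCTTCCGGccccactgagcg
MRPL49, YY1 letters, chr11:65122333-65122362, plus strand: cgtagcaggtaAAGATGGCagctaccatgt

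Counting the start as base 1, the ETS letters begin at −6 in MRPL16, −8 in MRPL33, −14 in MRPS23 and −37 in MRPS26. The YY1 letters begin at 9 in MRPL42, 10 in MRPS18A, 16 in MRPL20, 20 in MRPS7 and 24 in MRPL49. Of 12 tested genes for regulators of mitochondrial biogenesis, 4 rose and 5 fell in siP300, 7 were higher and 1 lower in siP300+OGA against siP300, and 4 rose and 5 fell in siOGA. In siP300 and in siOGA these shares, 33.3% and 41.7%, were near those of all tested genes. The latter were 30.2% higher and 35.7% lower in siP300, and 34% and 32.9% in siOGA. MYCL, a relative of MYC, fell to 3.63 ± 0.0321 FPKM in siP300, against 9.93 ± 0.124 in siNC (log2 difference −1.24, adjusted p = 5.41e-09). GABPA, the ETS factor, fell to 8.05 ± 0.103 FPKM in siP300, against 15 ± 0.468 in siNC (log2 difference −0.82, adjusted p = 1.91e-07). It was 10.2 ± 0.301 in siP300+OGA, above siP300 (0.30, adjusted p = 0.001). Its partner GABPB1 rose to 8.55 ± 0.289 FPKM in siP300, against 4.65 ± 0.456 in siNC (0.76, adjusted p = 7.62e-07). NRF1 was 7.43 ± 0.403 FPKM in siP300+OGA and 5.81 ± 0.644 in siP300 (0.31, adjusted p = 0.00421). MYC rose in siOGA (6.11 ± 0.59 FPKM against 2.16 ± 0.224 in siNC, log2 difference 1.17, adjusted p = 2.1e-07) and in siP300 (4.17 ± 0.243 FPKM, 0.71, adjusted p = 9.92e-06). Any link of these levels to the ribosomal genes was not tested.

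The rest of the mitochondrial translation system was counted from lists of gene names. For the counts here and below, the shares over all tested genes were 35.7% lower and 30.2% higher in siP300. They were 27% higher and 21.2% lower in siP300+OGA against siP300, and 32.9% lower and 34% higher in siOGA. Of 26 tested genes for assembly and rRNA modification, 14 fell and 4 rose in siP300, 18 were higher and 0 lower in siP300+OGA against siP300, and 15 fell and 7 rose in siOGA (medians −0.25, 0.22 and −0.21). DDX28, a helicase for assembly of the large subunit, fell to 1.53 ± 0.317 FPKM in siOGA, against 7.75 ± 0.659 in siNC (log2 difference −1.80, adjusted p = 1.96e-08). It stood above siNC in the other groups, at 11.9 ± 0.648 FPKM in siP300 and 14.2 ± 0.627 in siP300+OGA (the latter 0.79, adjusted p = 1.4e-05). NOA1, a GTPase for the small subunit, fell to 26.4 ± 0.76 FPKM in siP300, against 44.1 ± 0.397 in siNC (−0.72, adjusted p = 4.4e-08). ERAL1, the chaperone of 12S rRNA, was 36.3 ± 0.746 FPKM in siP300+OGA and 26.9 ± 1.06 in siP300 (0.42, adjusted p = 9.35e-06). Of 13 translation factors, 9 fell and 2 rose in siP300, 6 were higher and 1 lower in siP300+OGA, and 6 fell and 2 rose in siOGA. MTIF2, the initiation factor, fell to 22.2 ± 0.32 FPKM in siP300, against 40.6 ± 2.86 in siNC (−0.84, adjusted p = 9e-07). Of the 2 that rose, MTRF1L was 3.58 ± 0.232 FPKM in siP300, against 2.02 ± 0.16 in siNC (0.60, adjusted p = 3.9e-05). TUFM, the elongation factor that brings tRNA, was 151 ± 0.378 FPKM in siP300+OGA and 122 ± 1.89 in siP300 (0.31, adjusted p = 8.56e-05).

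Of 16 mitochondrial tRNA synthetases, 12 fell and 1 rose in siP300, 9 were higher and 2 lower in siP300+OGA against siP300, and 7 fell and 3 rose in siOGA. AARS2, for alanine, fell to 14.1 ± 0.786 FPKM in siP300, against 28.2 ± 1.85 in siNC (−0.95 on the log2 scale, adjusted p = 1.18e-07), and EARS2, for glutamate, to 12.4 ± 0.276, against 20.9 ± 0.666 (−0.71, adjusted p = 1.14e-08). Of 15 genes for mitochondrial RNA synthesis and processing, 10 fell and 1 rose in siP300, 8 were higher and 0 lower in siP300+OGA against siP300, and 9 fell and 1 rose in siOGA. HSD17B10, a subunit of mitochondrial RNase P, was 39.7 ± 2.64 FPKM in siP300+OGA and 25.8 ± 0.145 in siP300 (0.60, adjusted p = 1.77e-06). Of 5 ribosomal proteins under other names, 3 fell and 2 rose in siP300. DAP3, a GTP-binding protein of the small subunit, was 22.1 ± 0.327 FPKM there, against 35.2 ± 0.716 in siNC (−0.65, adjusted p = 6.27e-09), and AURKAIP1 was 46.6 ± 4.38 against 79.2 ± 1.37 (−0.76, adjusted p = 9.96e-06). Of those that rose, CHCHD1 was 15.4 ± 0.267 FPKM against 12.9 ± 0.942 in siNC (0.24, adjusted p = 0.00353). These 5 genes do not carry MRPL or MRPS symbols, so the counts by subunit and origin above leave them out.

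MRPS36 is known as a subunit of the 2-oxoglutarate dehydrogenase complex and entered here by its name. The counts above include it among the 11 mitochondria-specific genes of the small subunit and the 9 of them that fell in siP300. It had 10.3, 9.97 and 11.2 FPKM in siOGA, 6.97, 7.65 and 5.94 in siP300+OGA, 6.81, 7.57 and 7.05 in siP300, and 9.92, 7.77 and 8.92 in siNC. In siP300 it was 80.5% of siNC (log2 difference −0.27, SE 0.0919, adjusted p = 0.0218), a call lost with regional medians removed (−0.14, adjusted p = 0.148), with no filter, and without siNC replicate 1 or 3 or siP300 replicate 1 or 3 (−0.27 to −0.20, adjusted p = 0.053 to 0.0925). MRPS10, relative of bacterial S10, was higher in siOGA (29.8 ± 2.23 FPKM against 23.1 ± 0.819 in siNC, log2 difference 0.35, SE 0.0552, adjusted p = 0.000181).

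Of 82 tested protein genes of the ribosome of the cytosol, 58 rose and 4 fell in siOGA (median 0.31). In siP300 6 rose and 39 fell (−0.16), and in siP300+OGA against siP300 31 were higher and 7 lower (0.12). Of 78 nuclear genes for respiratory chain subunits, 33 rose and 14 fell in siOGA, 21 rose and 20 fell in siP300, and 28 were higher and 4 lower in siP300+OGA against siP300. In siP300 these were 26.9% higher and 25.6% lower, beside 30.2% and 35.7% of all tested genes. Of the 15 RNAs encoded in the mitochondrial genome, 9 rose and 3 fell in siOGA, 10 rose and 0 fell in siP300, and 0 were higher and 1 lower in siP300+OGA against siP300. For the last of these 0s the count was 1 at an unadjusted p under 0.05 and 3 with voom, and for each other 0 in these lists both counts were 0. Their FPKM summed to 64689 to 71759 in siOGA, 66414 to 68831 in siP300+OGA, 68204 to 70230.4 in siP300, and 47957 to 55720.3 in siNC. FPKM values of a library share 1 scale, which differed from the total of reads in genes. The part of the mitochondrial sum in the other levels was not tested. Differences between these lists were not tested.

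**Figure D5:**
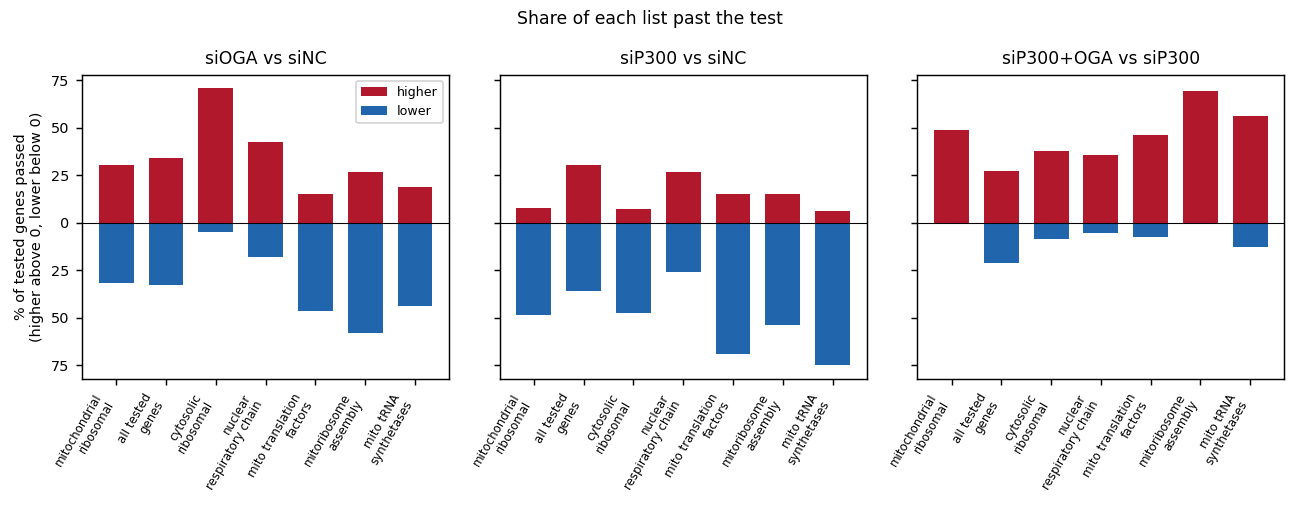
Share of tested genes that passed (vertical axis, percent; higher above 0 in red, lower below 0 in blue; limma, adjusted p under 0.05) for the mitochondrial ribosomal protein genes, all tested genes and 5 related lists in 3 comparisons. In siP300+OGA against siP300 the mitochondrial ribosomal bar has 48.7% above 0 and none below; in siOGA against siNC it is split, while the cytosolic ribosomal bar reaches 70.7% above 0.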

How the data were processed

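The authors deposited FPKM per gene (fragments or reads, scaled to gene length and library size) for 12 poly(A) libraries, made per the labels' protocols with unique molecular identifiers and dUTP strand marking. Tools listed without roles, per the submitters' processing notes, are edgeR, DESeq2, StringTie 1.3.4d, UMI-tools, HISAT2 2.0.4 and cutadapt 1.9, with the build GRCh38. Values were whole multiples of 1 read per kb (100% within 0.01 reads), which gave the read totals. 1 read per kb was worth 0.0518 to 0.0647 FPKM, and counting error of a gene follows from its reads.

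Log2(FPKM + 1) values were compared in limma 3.58.1 (R 4.3.3; trended prior), in 1 fit of all 12 libraries (8 residual degrees of freedom). The 13166 genes averaging 1 FPKM or more entered (49587 lay below), and Benjamini-Hochberg adjustment ran over them. The +1 shrinks differences of low genes. The fit was checked on simulated data. Genes counted as called had an adjusted p under 0.05.

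The members and lists were chosen with earlier results of these data known, and the cytosolic ribosomal and respiratory chain lists after the data were seen. Per-library values are given for the 6 largest called rises and falls without overlap per comparison, the 4 highest and lowest genes in siNC, and genes called in all 3 main comparisons. Promoter sequences are from RefSeq (GRCh38). Alternatives covered pseudocount, filter, scaling, trend, regional medians, a replicate block, voom and each library left out.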

Additional observations from a re-analysis of the deposited data

How the results depend on the processing

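Across 200 pairs of a gene and a comparison and 23 alternatives, 4296 values kept direction and side of the threshold (an uncalled change of sign counted as kept), 83 gained the call, 191 lost it and 5 changed sign. With quantile normalization MRPL37 had −0.04 in siOGA against siNC (adjusted p = 0.476) and MRPL58 −0.02 in siOGA against siP300 (0.729). With regional medians removed MRPL51 had 0.02 (0.782) and MRPS35 0.01 (0.903) in siP300 against siNC, and MRPS35 0.34 (0.000123) in siP300+OGA against siNC. The cause was not tested. Of the counts over all 76 genes, those that moved by over 1.5 times with all libraries kept were 13 genes in place of 23 higher in siOGA than in siNC with regional medians removed, 11 of them shared, and 1 in place of 0 lower in siP300+OGA than in siP300 with quantile normalization. In siP300 against siNC 28 in place of 37 were lower with regional medians removed, 25 of them shared. Of all 13166 tested genes 4212 in place of 4697 were lower there. By subunit, regional medians removed left 3 in place of 8 small-subunit genes higher in siOGA and 9 in place of 14 lower in siP300, both against siNC, and 8 in place of 16 higher and 4 in place of 7 lower in siOGA against siP300 (4 also with the filter raised to 5 FPKM). The small-subunit count of 1 higher in siP300 ranged from 0 to 3 over the alternatives. In siP300+OGA against siNC the 7 lower large-subunit genes were 4 with no filter and 4 without siNC replicate 1. Counts by origin, all of 18 or fewer, moved more often. Beside those given with the comparisons, 5 in place of 8 mitochondria-specific large-subunit genes were higher in siP300+OGA than in siP300 with quantile normalization.

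With 1 library left out, 17 to 23 genes were higher and 19 to 24 lower in siOGA against siNC, 5 to 7 and 33 to 39 in siP300 against siNC, 31 to 39 and 0 to 1 in siP300+OGA against siP300 (1 without siP300 replicate 2), 15 to 21 and 10 to 16 in siP300+OGA against siNC, and 33 to 40 and 14 to 16 in siOGA against siP300. With a replicate block the counts, higher then lower, were 23 and 23, 6 and 37, 38 and 0, 19 and 14, and 37 and 16 in the same order. Deviations from the group means correlated at −0.0575 to 0.131 over 18 pairs of same-numbered libraries. The highest pair was siNC replicate 3 with siOGA replicate 3, and differently numbered pairs reached at most 0.0712. Whether the numbers mark a shared day or culture is not known. With voom, added after seeing the data, the counts were 24 and 25, 6 and 37, 38 and 0, 18 and 15, and 36 and 16. The planned edgeR and DESeq2 alternatives were not run, since the deposited unit is FPKM. Counting error weighs most on low genes such as MRPL46 and MRPS17.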

Other observations

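The table also held 88 rows named after mitochondrial ribosomal protein genes that do not code for protein, 79 pseudogenes and 9 lncRNAs. Of the pseudogenes, 49 were listed at 0 in all 12 libraries and 4 exceeded 1 FPKM in any library. The rows named here were chosen after their values were seen.

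MRPL20-AS1, an lncRNA named as antisense to MRPL20, fell in siOGA (3.65 ± 0.894 FPKM against 7.02 ± 1.01 in siNC, SD, n = 3 each, log2 difference −0.80, limma adjusted p = 0.000716). It did not pass in siP300 against siNC (6.64 ± 1.22 FPKM in siP300, −0.07, adjusted p = 0.684). MRPL20-DT, named as a divergent transcript of the same gene, did not pass in siOGA (8.42 ± 0.381 FPKM against 7.57 ± 0.893 in siNC, adjusted p = 0.121) and was lower in siP300+OGA than in siP300 (6.52 ± 0.266 against 8.29 ± 0.697 FPKM, −0.30, adjusted p = 0.00648).

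MRPL23-AS1 averaged 2.02 ± 0.155 FPKM in siOGA, 0.0398 ± 0.0462 in siP300+OGA, 0.286 ± 0.0539 in siP300 and 0.519 ± 0.0361 in siNC. MRPS30-DT averaged 1.76 ± 0.197, 0.428 ± 0.098, 0.645 ± 0.0404 and 0.579 ± 0.0448 FPKM in the same order. Both lay below the minimum of the test, so their differences carry no p-value.

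The processed pseudogene MRPS18AP1 was lower in siP300 (0.998 ± 0.51 FPKM against 3.08 ± 0.974 in siNC, −1.03, adjusted p = 0.000831), and reads it may share with MRPS18A make its level uncertain.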
